A study of Mus musculus with 5 samples.

Results

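The stretch described here is the proximal flank of the imprinted gene Igf2r on mouse chromosome 17, chr17:11500000-12089999 in the positions of the array files, a length of 590 kb. Its members were set by a range of positions: 3182 of the 387986 chromosome 17 probes lie in it, and they fill 112 of the 15383 windows of 5 kb that hold at least 8 probes. RNA was read on 5 tiling arrays from 2 lines of spontaneously immortalised fibroblasts, grown out of FVBN mouse embryos at 12.5 days after conception. Both lines carry the Thp deletion on 1 copy of chromosome 17; the labels put it at 8.6 to 13.2 Mb of mm9, so the whole flank is deleted from 1 parental copy in either line. The line MEFF (Thp/+) gave 2 arrays of total RNA and 2 of polyA RNA, and the line MEFB (+/Thp) gave 1 array of polyA RNA. By the usual order of writing alleles, with the maternal one first, MEFF keeps the paternal copy and MEFB the maternal copy. No array held a line with both copies, each genotype is 1 line, and nothing in the labels says that the arrays of a group are separate cultures; p-values therefore cover the array-to-array spread alone, which may be technical. The arrays are called MEFF total, MEFF polyA and MEFB here, and a pair of values gives array 1 before array 2. On each array Cy3 carried double-stranded cDNA, which keeps no strand, and Cy5 carried genomic DNA of the same line, called the input.

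Igf2r encodes a receptor that takes up insulin-like growth factor 2 and is made from the maternal copy in most mouse tissues. The long non-coding RNA Airn starts inside Igf2r, is made from the paternal copy and silences Igf2r on that copy. In the placenta, Airn also keeps the paternal copies of Slc22a2 and Slc22a3 silent, and these transporter genes lie in the flank. With opposite copies deleted in the 2 lines, RNA of the flank in MEFF can come only from one copy and that in MEFB only from the other. A stretch without signal in both lines gave no polyA RNA that could be detected from either copy. Total RNA was read in MEFF alone, so RNA without a polyA tail from the copy kept in MEFB was not read. The defining fibroblast genes, such as Col1a1 and Vim, lie on other chromosomes and could not be read on these arrays. In such bulk RNA, fewer cells that make a transcript and less of it per cell cannot be told apart.

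Probe positions were matched to the NCBIM37 build (mm9) by the layout of the probes, which put the flank at chr17:12284444-12873619. Along it lie, from the proximal end, Agpat4 (chr17:12311570-12412511), Map3k4 (chr17:12420489-12511614), the non-coding gene 4732491K20Rik (chr17:12511751-12520116), Plg (chr17:12571475-12612250), Slc22a3 (chr17:12612838-12700570) and Slc22a2 (chr17:12777055-12821331), all in NCBIM37. Park2, a further gene of the region, has no probe in it. Of the 3182 probes, 154 fell in exons, 2135 in introns and 893 between genes.

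The upstream sequences of 2 genes with bright exons and 2 genes without are shown to let the starts be compared. They are the 250 bases before the start of each gene, 5′ to 3′ on the gene's own strand, from RefSeq on GRCm38.p6, and capitals mark each CG dinucleotide. They lie at chr17:12119034-12119283 on the plus strand for Agpat4, chr17:12318661-12318910 on the minus strand for Map3k4, chr17:12507705-12507954 on the minus strand for Slc22a3 and chr17:12583939-12584188 on the plus strand for Slc22a2.
Agpat4: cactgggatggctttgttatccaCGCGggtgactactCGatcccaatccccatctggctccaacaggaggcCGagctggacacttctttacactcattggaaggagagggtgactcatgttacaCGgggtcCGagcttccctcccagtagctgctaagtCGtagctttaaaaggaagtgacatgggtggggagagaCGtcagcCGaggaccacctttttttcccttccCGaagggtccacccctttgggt
Map3k4: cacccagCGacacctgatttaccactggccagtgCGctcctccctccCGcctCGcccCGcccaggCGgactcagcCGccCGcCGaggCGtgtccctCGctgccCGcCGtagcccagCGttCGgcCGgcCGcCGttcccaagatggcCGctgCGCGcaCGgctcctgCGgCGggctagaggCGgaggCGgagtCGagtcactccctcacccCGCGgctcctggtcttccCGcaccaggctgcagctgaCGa
Slc22a3: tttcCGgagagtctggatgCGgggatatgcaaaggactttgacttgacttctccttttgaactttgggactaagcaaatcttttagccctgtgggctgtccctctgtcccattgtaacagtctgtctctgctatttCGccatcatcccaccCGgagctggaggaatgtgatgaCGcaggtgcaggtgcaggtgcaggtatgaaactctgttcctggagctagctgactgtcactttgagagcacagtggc
Slc22a2: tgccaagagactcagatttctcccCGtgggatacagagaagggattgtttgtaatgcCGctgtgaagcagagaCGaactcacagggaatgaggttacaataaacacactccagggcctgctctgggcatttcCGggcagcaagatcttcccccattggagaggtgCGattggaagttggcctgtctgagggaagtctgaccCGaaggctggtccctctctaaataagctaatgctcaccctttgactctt
Map3k4 holds 31 CG dinucleotides in this window and Agpat4 10, against 5 for Slc22a3 and 6 for Slc22a2, with a median of 6 over 32851 promoters of the same length. Of those promoters, 5.19% hold as many as Map3k4 and 37.8% as many as Agpat4. The Map3k4 window shares 192 bases with that of 4732491K20Rik, which starts next to it on the other strand. The window of 4732491K20Rik holds 35, and 2.97% of promoters hold as many, although the exons of this gene were not bright. The letters GGGCGG, searched on both strands, occur 2 times upstream of Map3k4 and not in the other 3 windows, and 32.7% of all promoters hold them. The letters TATAAA, also on both strands, are in none of the 4 windows, and 12.4% of all promoters hold them. RefSeq entries were matched for 5 of the 9 genes placed in the flank; Plg is named only.

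The flank fell into 3 sections that came in the same order on all 5 arrays. The windows over Agpat4 lay mostly above the array's window median without passing the background limit everywhere, Map3k4 carried signal in its exons with introns close to the array median, and everything from the 5′ introns of Map3k4 to the end next to Igf2r stayed under the background limit. Levels are log2(cDNA/input) with the array median set to 0. The background limit of an array is the median of its windows plus 3 times the distance from that median to their 16th percentile. The limits were 0.66 and 0.69 for MEFF total, 0.45 and 0.89 for MEFF polyA and 0.96 for MEFB, so a window had to be brighter to pass on the polyA array with the wider spread and on the MEFB array.

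Few windows passed. On the 2 MEFF total RNA arrays 8 and 3 of the 112 windows lay above the limit, on the 2 MEFF polyA RNA arrays 8 and 10, and on the MEFB array 2. Both MEFF total RNA arrays passed in 3 windows (2.68%), against 3.47% of all windows. Both MEFF polyA RNA arrays passed in 4 windows (3.57%), against 7.78% of all windows. The MEFB array passed in 1.79% of the flank, against 7.04% of all windows. No flank window passed on all 5 arrays, against 2.75% of all windows, and 97 (86.6%) passed on none, against 88.9%. Of the 15 windows that passed on at least 1 array, 12 lie in Agpat4 and 3 in Map3k4. Without one or the other polyA array, the share for MEFF polyA RNA was 8.93% or 7.14%, against 8.5% or 9.08% of all windows. Without the second total RNA array that for MEFF total RNA was 7.14%, against 4.36% of all windows.

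**Figure D1:**
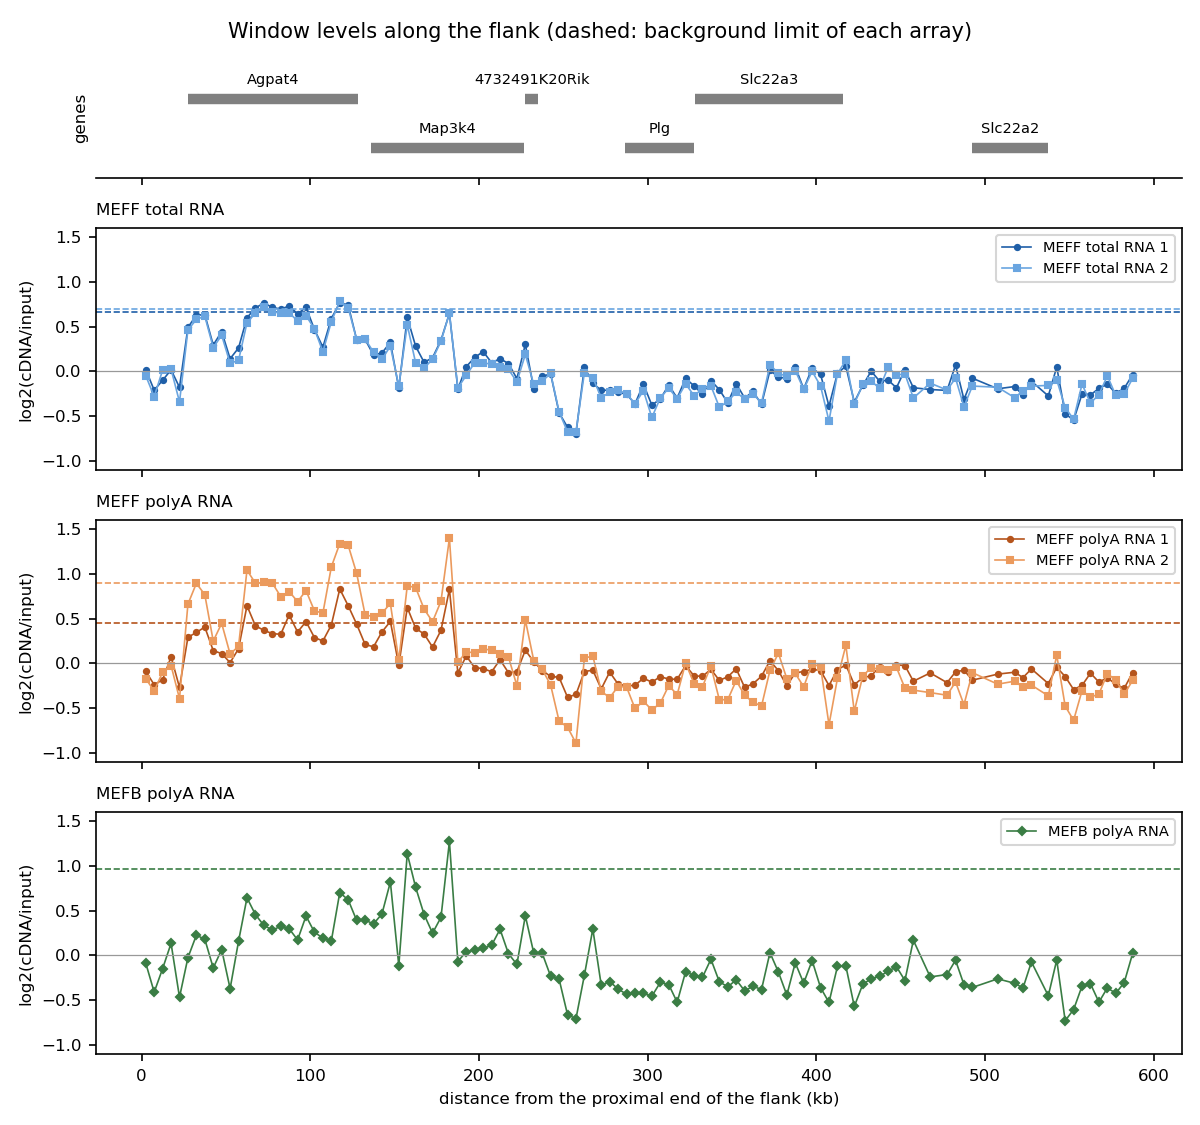
Mean log2(cDNA/input) of each 5 kb window against distance from the proximal end of the flank in kb, with one panel per group, one line per array, dashed lines at the background limits and grey bars for genes. The lines rise over Agpat4, rise again at exon windows of Map3k4 and stay below the limits over the 405 kb that follow.

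The input channel was read as a check of the deletion. The median log2 input of the flank differed from that of all other probes by 0.0012, 0.0028, 0.014 and 0.0039 on the MEFF arrays and by 0.074 on the MEFB array. The mean over arrays was 0.019 ± 0.031 (SD, n = 5), so the input signal of the flank was not lower than that of the rest of the chromosome in either line. The deletion was therefore not visible in this channel, and the assignment of copies rests on the labels and on the neighbouring genes. Igf2r, beyond the end of the flank, had exon levels of 0.92 and 0.81 for MEFF total, 1.54 and 2.33 for MEFF polyA and 4.37 for MEFB. Probes in Airn outside the exons and introns of other genes read 2.11 and 2.03 for MEFF total, 1.75 and 2.73 for MEFF polyA and 0.018 for MEFB. MEFB was thus the highest array for Igf2r and the lowest for Airn, with no overlap between the lines.

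Agpat4 encodes an acyltransferase that makes phosphatidic acid from lysophosphatidic acid. Its 19 exon probes averaged 0.97 and 1.07 for MEFF total, 2.07 and 2.85 for MEFF polyA and 2.05 for MEFB. All 5 arrays were well above their medians, total RNA was below polyA RNA without overlap, and MEFB lay just under the lower MEFF polyA array. The brightest exon, read by 1 probe, reached 2.49 and 2.60 for MEFF total, 3.94 and 4.94 for MEFF polyA and 4.59 for MEFB. Of the exon probes, 47.4% on either total RNA array, 63.2% and 68.4% for MEFF polyA and 57.9% for MEFB were brighter than the 95th percentile of all probes of that array. Among the 490 genes with at least 8 exon probes, its exon level stood above 72.9% and 75.5% of genes for MEFF total. The shares were 79.4% and 75.7% for MEFF polyA and 63.1% for MEFB.

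In the introns of Agpat4 the order of the groups was another. The 604 intron probes averaged 0.56 and 0.51 for MEFF total, 0.34 and 0.72 for MEFF polyA and 0.22 for MEFB. The MEFF groups overlapped, and MEFB was the lowest array. Among the 505 genes with at least 8 intron probes, Agpat4 stood above 91.5% and 90.7% of genes for MEFF total, above 74.1% and 74.3% for MEFF polyA and above 58% for MEFB. Probes brighter than the 95th percentile of the array made up 30.5% and 26% of its introns for MEFF total, 11.4% and 9.11% for MEFF polyA and 2.15% for MEFB.

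Over the 21 windows that touch Agpat4, the mean level was 0.55 and 0.51 for MEFF total, 0.37 and 0.76 for MEFF polyA and 0.26 for MEFB. All 21 lay above the array's window median on the MEFF arrays and all but 2 on the MEFB array. Of them, 8 and 3 passed the limit for MEFF total, 5 and 9 for MEFF polyA and 0 for MEFB. The MEFB level was under both MEFF polyA arrays in 20 of these windows, against 31.3% of all windows. It was also under both in 34 (51.5%) of the 66 windows after Map3k4, where no array passed its limit, and the median difference of the flank was -0.09 against 0.01 over all windows, so a lower MEFB level was not limited to Agpat4. The windows of a gene read the same transcripts and are not replicates. The window at its start, chr17:11525000-11529999, read 0.49 and 0.46 for MEFF total, 0.29 and 0.66 for MEFF polyA and -0.02 for MEFB, so that MEFB fell below all MEFF arrays. No window of the flank passed limma's test for this contrast, with 0.0065% of all windows called, and the lowest adjusted p was 0.19; 7 windows had an unadjusted p under 0.05, against 15.7% of all windows. After normexp background correction (offset 50) the window at the start of Agpat4 was the 1 flank window called, lower in MEFB, against 3.17% of all windows called and 1.21% called lower, with a difference of -1.08 ± 0.29 (SE) and an adjusted p of 0.038 by limma. Without either total RNA array that adjusted p was 0.068. As deposited, 37 flank windows were called without the first MEFF polyA array, against 45.4% of all windows, and 38 without the second, against 44.8%; in these settings only the total arrays give a spread. After quantile normalization 9 flank windows were called, against 6.81% of all windows: 8 in Agpat4, lower in MEFB, against 3.11% of all windows called lower, and 1 between genes, higher in MEFB, against 3.69% called higher.

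Agpat4 was also tested as a whole gene. Its intron level for MEFB minus MEFF polyA was -0.31 ± 0.18 (SE; adjusted p = 0.43, limma), with 0.396% of 505 genes called. After normexp the difference was -0.69 ± 0.24 (adjusted p = 0.068, limma), with 7.92% of genes called, and after quantile normalization -0.35 ± 0.08 (adjusted p = 0.036, limma), with 15.2% called. The exon difference was -0.41 ± 0.40 (adjusted p = 0.84, limma), with 0% of 490 genes called. After normexp it was -0.86 ± 0.39 (adjusted p = 0.23, limma), with 8.98% called, and after quantile normalization -0.55 ± 0.13 (adjusted p = 0.0063, limma), with 26.9% called. The size rests on which MEFF polyA array is kept: without the first, the differences were -0.49 in introns and -0.80 in exons (adjusted p = 7.5e-16 and 5.8e-05, limma), where 70.9% and 66.5% of all genes were called. Without the second they were -0.12 and -0.01 (adjusted p = 0.052 and 0.91, limma), with 74.3% and 75.1% called. The MEFB array and the second MEFF polyA array shared a wide range of cDNA intensity, with a 99th percentile of 20.7 and 22.4 times the median against 9.17 on the first MEFF polyA array, and the part of this in the difference was not tested.

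Map3k4 encodes a kinase that activates the p38 and JNK stress pathways. Its 40 exon probes averaged 1.41 and 1.39 for MEFF total, 2.49 and 3.42 for MEFF polyA and 3.06 for MEFB. MEFB lay between the MEFF polyA arrays, and total RNA lay below all polyA arrays. Its 509 intron probes averaged 0.09 and 0.04 for MEFF total, 0.02 and 0.20 for MEFF polyA and 0.17 for MEFB, close to the array medians throughout. The highest window of the flank by the mean of the 3 group means, chr17:11680000-11684999, holds 8 exon probes of Map3k4 and read 0.65 and 0.65 for MEFF total, 0.83 and 1.40 for MEFF polyA and 1.27 for MEFB. It was the highest on the second MEFF polyA array and on MEFB; on the other 3 arrays the Agpat4 window chr17:11615000-11619999 was higher, with 0.77 and 0.78 for MEFF total and 0.83 on the first MEFF polyA array. The difference of exon levels between MEFB and MEFF polyA RNA was 0.11 ± 0.45 (SE; adjusted p = 0.98, limma), and it was -0.37 after normexp and -0.15 after quantile normalization, so it has no settled direction. Without the first MEFF polyA array it was -0.36 (adjusted p = 0.0036, limma) and without the second 0.57 (adjusted p = 0.0002, limma).

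In both genes the exons were lower in total RNA than in polyA RNA of MEFF. The difference was -1.44 ± 0.32 (SE; adjusted p = 0.12, limma) for Agpat4 and -1.56 ± 0.37 (adjusted p = 0.12, limma) for Map3k4, where 0% of the 490 genes passed. After normexp the differences were -1.58 ± 0.32 (adjusted p = 0.001, limma) and -1.71 ± 0.31 (adjusted p = 0.00069, limma), but 51.6% of all genes were then called. After quantile normalization they were -0.66 ± 0.10 (adjusted p = 0.00034, limma) and -0.53 ± 0.10 (adjusted p = 0.00096, limma), with 48.2% called. Without the first MEFF polyA array they were -1.83 and -2.02, and without the second -1.04 and -1.1, each called, where 72.7% and 67.6% of all genes were. The introns of Agpat4 did not follow the exons: their difference was 0.003 ± 0.15 (adjusted p = 0.99, limma), with 0% of 505 genes called. Without the first MEFF polyA array it was -0.19 and without the second 0.19, both called (adjusted p = 0.0005 and 0.00079, limma) with 60.8% and 36.6% of all genes, so the direction turned with the polyA array kept. Over windows, 0 of 112 were called, against 0% of all windows, and 3 had an unadjusted p under 0.05 by limma, against 7.73%. Without the first MEFF polyA array 32 windows were called, against 29.2% of all windows, and without the second 18, against 20.8%. After normexp 0 were called, against 3.39%. After quantile normalization 5 windows were called, all in Agpat4 and higher in total RNA, against 6.04% of all windows called and 2.53% called higher. Total and polyA RNA were hybridised on arrays of different slide series, so RNA type and array lot cannot be told apart.

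**Figure D2:**
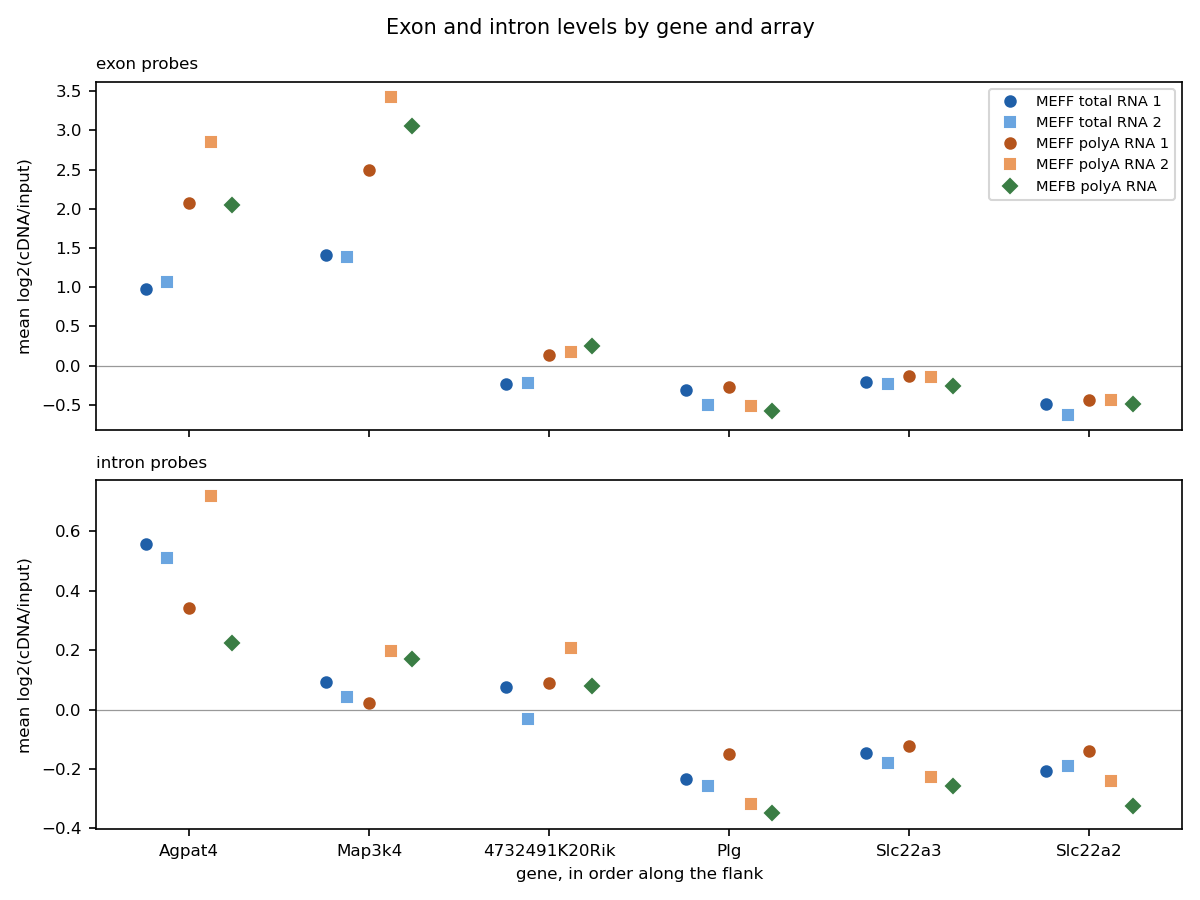
Mean log2(cDNA/input) of the exon probes (upper panel) and intron probes (lower panel) of 6 genes with at least 8 probes, in their order along the flank, with one point per array. Agpat4 and Map3k4 stand above the other genes in exons, and Agpat4 alone stands above 0.2 on every array in introns.

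The longest stretch above the limit on no array ran from chr17:11685000-12089999, 405 kb with 75 windows and 2008 probes; 6 windows within it held too few probes. Its mean level was -0.16 and -0.18 for MEFF total, -0.13 and -0.22 for MEFF polyA and -0.24 for MEFB. The highest window of the stretch reached 0.30 and 0.19 for MEFF total, 0.15 and 0.48 for MEFF polyA and 0.44 for MEFB, each under the limit of its array. Between 64% and 82.7% of its windows, depending on the array, lay below the array's window median. Its first 9 windows lie in Map3k4, a gene with bright exons, so a window under the limit can hold introns of an active gene. The 66 windows after Map3k4 averaged -0.19 and -0.21 for MEFF total, -0.15 and -0.26 for MEFF polyA and -0.28 for MEFB. The other 4 of the 5 longest stretches were 30, 25, 20 and 15 kb long and lie in or next to Agpat4 and Map3k4. Of all windows of the chromosome, 88.9% passed on no array, so windows under the limits were common. The length of such stretches outside the flank was not measured.

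The genes in the 405 kb were next read by their exons, where a spliced RNA would be seen best. Plg encodes plasminogen, a protease precursor made by hepatocytes. Its 24 exon probes averaged -0.30 and -0.50 for MEFF total, -0.27 and -0.51 for MEFF polyA and -0.57 for MEFB. Only 1 of them, on the first MEFF total RNA array, was brighter than that array's 95th percentile. Plg thus stood below zero on each array, with MEFB lowest and the second MEFF polyA array next to it.

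Slc22a3 encodes an organic cation transporter that also carries monoamines. Its 25 exon probes averaged -0.20 and -0.24 for MEFF total, -0.14 and -0.14 for MEFF polyA and -0.26 for MEFB. The 7 probes of its first exon read 0.06 and 0.07 for MEFF total, 0.17 and 0.65 for MEFF polyA and 0.09 for MEFB, above the mean of the gene's exons on every array. Here too 1 exon probe, on the first MEFF total array, was brighter than the 95th percentile. The 484 intron probes averaged between -0.26 and -0.12 over the 5 arrays.

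Slc22a2 encodes a cation transporter best known from the kidney. Its 11 exon probes averaged -0.49 and -0.62 for MEFF total, -0.44 and -0.44 for MEFF polyA and -0.48 for MEFB. Slc22a2 lies in blocks that were placed between their neighbours, where the shift changes, so its probes could be assigned to exons less surely than those of the other genes. Its 129 intron probes averaged between -0.33 and -0.14. No exon probe of Slc22a2 was brighter than the 95th percentile on any array.

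Between MEFB and MEFF polyA RNA the exon differences were -0.18 ± 0.22 (SE) for Plg, -0.12 ± 0.18 for Slc22a3 and -0.04 ± 0.19 for Slc22a2. None was called by limma, in either contrast, as deposited, after normexp or after quantile normalization. With so few arrays, the fits leave room for differences larger than the standard errors. A level under the limit is a bound set by the array, not an absence of RNA.

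The level of exons minus that of introns of the same gene does not depend on how an array is centred. For Agpat4 it was 0.42 and 0.56 for MEFF total, 1.72 and 2.13 for MEFF polyA and 1.83 for MEFB. For Map3k4 it was 1.32 and 1.34 for MEFF total, 2.47 and 3.22 for MEFF polyA and 2.89 for MEFB. For Plg and Slc22a2 it was below 0 on all 5 arrays, from -0.24 to -0.07 for Plg and from -0.43 to -0.16 for Slc22a2. For Slc22a3 it lay between -0.06 and 0.09. Over the 399 genes of the chromosome with enough probes of both kinds, the median was 0.29 and 0.32 for MEFF total, 0.67 and 1.1 for MEFF polyA and 0.99 for MEFB. Exons were above introns in 75.7% to 83% of these genes, depending on the array.

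**Figure D3:**
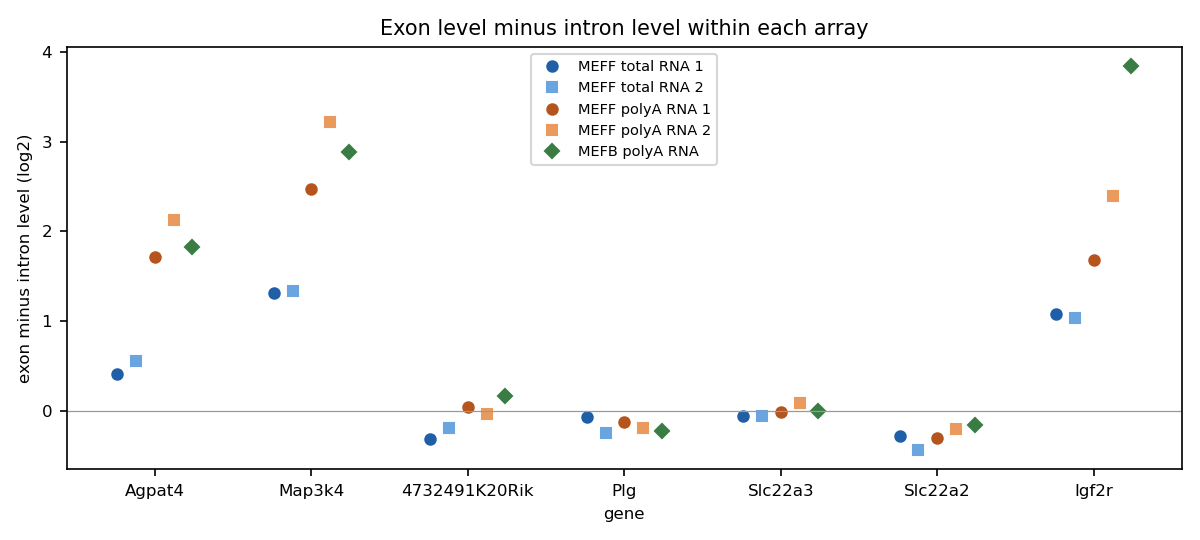
Exon level minus intron level (log2) of 6 flank genes and of the neighbour Igf2r, with one point per array. Agpat4, Map3k4 and Igf2r lie above 0.4 on every array, whereas Plg and Slc22a2 lie below 0.

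The non-coding gene 4732491K20Rik, which starts beside Map3k4 on the other strand, stood between these groups. Its 20 exon probes averaged -0.23 and -0.22 for MEFF total, 0.13 and 0.18 for MEFF polyA and 0.25 for MEFB. Total RNA was below polyA RNA without overlap, and the difference in MEFF was -0.38 ± 0.14 (SE; adjusted p = 0.13, limma); after quantile normalization it was -0.39 ± 0.10 (adjusted p = 0.0057, limma), with 48.2% of genes called. The exon probe nearest the Map3k4 start read 0.49 and -0.11 for MEFF total, 0.94 and 1.32 for MEFF polyA and 1.40 for MEFB. The exon probes further on, in groups of 9 and 10, averaged between -0.06 and 0.47 on the polyA arrays. The genes do not overlap in the annotation, but the cDNA keeps no strand, so signal close to the neighbouring starts cannot be assigned to a strand.

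Between genes, 1 window of the longest stretch under the limits stood out in MEFB. At chr17:11955000-11959999, between Slc22a3 and Slc22a2, the level was -0.18 and -0.30 for MEFF total, -0.20 and -0.30 for MEFF polyA and 0.17 for MEFB. MEFB was above all 4 MEFF arrays, but under its own background limit. The difference was called after quantile normalization (0.38 ± 0.09 SE, adjusted p = 0.039, limma) and not as deposited or after normexp, and the window holds 10 probes. The lowest window of the flank by the mean of the 3 group means, chr17:11755000-11759999 between 4732491K20Rik and Plg, read -0.69 and -0.67 for MEFF total, -0.35 and -0.89 for MEFF polyA and -0.71 for MEFB. On the first MEFF polyA array the window from 11750000 was lower, at -0.38, and on MEFB the window from 12045000, at -0.73.

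**Figure D4:**
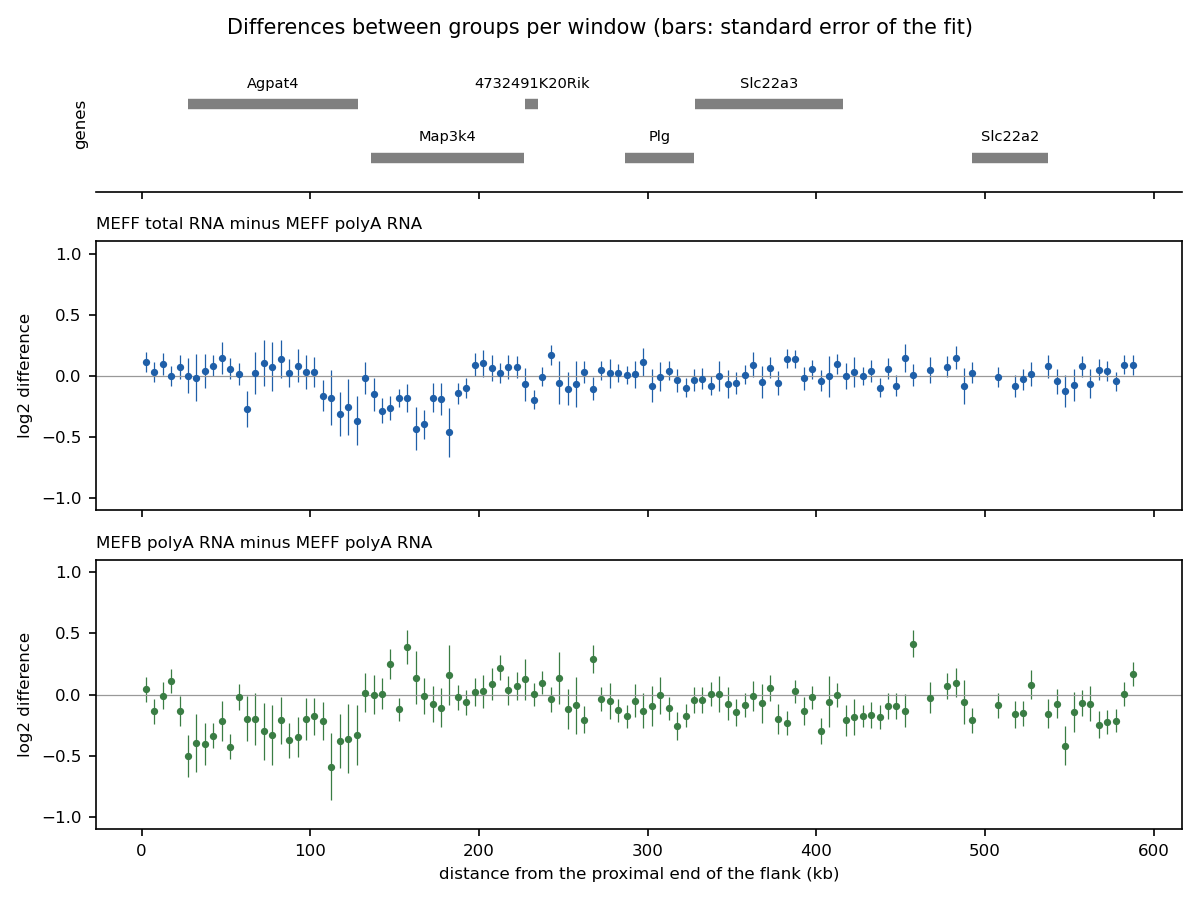
Difference between groups per 5 kb window (log2) against distance from the proximal end of the flank in kb, for MEFF total RNA minus MEFF polyA RNA (upper plot) and MEFB minus MEFF polyA RNA (lower plot), with bars of 1 standard error of the limma fit. All 21 windows over Agpat4 lie below 0 in the lower plot.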

How the data were processed

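Per the file headers, the deposited values are raw probe intensity values of 2 channels, extracted with NimbleScan 2.2.34; the labels give Cy3 as cDNA and Cy5 as input. The values show no sign of background subtraction or normalization. Which build the probe positions follow is not given in the sources used. The probes were placed on NCBIM37 in blocks of 25 kb from their layout alone, since the design avoids repeats: all 3182 flank probes were placed, 19 of 24 blocks freely and 5 between neighbours. No intensity took part in placing the blocks, although the analysis plan had named the input channel for this. As a check, the correlation across probes of GC content with input in the flank rose from 0.0245 at file positions to 0.0891 at placed positions. It was highest, 0.1724, with the bases read from 25 upstream, so the placed position was taken as the probe's centre. That choice of centre did use the input.

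From the intensities, log2(cDNA/input) was centred on each array's median and averaged in 5 kb windows (minimum 8 probes) and over the exons and introns of GENCODE genes with at least 8 probes. Groups were compared with limma 3.58.1 (R 4.3.3), with 3 group means, 2 residual degrees of freedom and Benjamini-Hochberg adjustment over all windows or genes of the chromosome at 0.05. The fit takes the spread of the single MEFB array from the other groups. The fit was tested on simulated data. Genes named are those placed in the flank, except 1 not reported here, with Igf2r and Airn; windows named are the highest, the lowest and those called, and 1 window between genes chosen after its values were seen. Members and lists were chosen with earlier results of these data known. Alternatives were median in place of mean, 2 and 10 kb windows, normexp, quantile and loess (span 0.3) normalization, cDNA without input, leaving out the 10% dimmest input probes, a trended prior, only the groups compared, limits of 2 and 4 spreads, and each replicate left out. Normexp with a replicate left out, and probe centres moved by 25 bases, were chosen after seeing the data.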

Additional observations from a re-analysis of the deposited data

How the results depend on the processing

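The share of flank windows above the limit on at least 1 array was 13.4%; it moved to 33% with the cDNA channel alone, 25.9% after loess, 22.3% and 4.46% at limits of 2 and 4 spreads, 20.7% without dim input probes, 7.14% with the median of probes and 5.13% in windows of 2 kb. The shares above the limit per group, with MEFF total, MEFF polyA and MEFB in this order, were 0.893%, 1.79% and 0% with the median of probes, 10.3%, 12.1% and 0% in windows of 10 kb, and 17%, 20.5% and 6.25% after loess. They were 27.7%, 21.4% and 17.9% with the cDNA channel alone, 10.8%, 17.1% and 5.41% without dim input probes, and 15.2%, 20.5% and 6.25% at a limit of 2 spreads. MEFF total stood at 0.733% in windows of 2 kb and 11.6% after quantile normalization, and MEFF total and MEFB both at 0% at 4 spreads. With each replicate left out in turn, MEFF total ranged from 2.68% to 7.14% and MEFF polyA from 3.57% to 8.93%. Over all windows these ranges were 3.47% to 4.36% and 7.78% to 9.08%. For the other settings the share over all windows was not computed. Those shares therefore describe the flank alone and cannot be set against the chromosome. The cause of these shifts was not tested.

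As deposited, the mean level of the flank was 0.00598, 0.0318 and -0.0636 for the groups in the same order. The windows outside it averaged -0.0367 and -0.0432 for MEFF total, 0.0238 and 0.0151 for MEFF polyA and 0.0422 for MEFB. The mean level of the flank moved to 0.174, 0.191 and 0.0252 after normexp and to 0.105, 0.104 and 0.0284 after loess. It was 0.198, 0.23 and 0.203 with the cDNA channel alone and -0.0951, -0.0726 and -0.217 without dim input probes. For MEFF total alone it moved to 0.03 with the median of probes and 0.0587 after quantile normalization.

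Flank windows called in MEFF total minus MEFF polyA numbered 5 after quantile normalization and 0 to 32 with a replicate left out, and 11 after normexp without the second polyA array. In MEFB minus MEFF polyA they numbered 1 after normexp, 9 after quantile normalization and 0 to 38 with a replicate left out; after normexp they were 18 without the first polyA array and 2 without the second. The larger counts came where a polyA array was left out and the spread was estimated from the total RNA pair. For normexp with a replicate left out, the share of all windows called was not computed. Those counts cannot be set against the chromosome. Flank genes called by their exons in MEFF total minus MEFF polyA were 2 after normexp (51.6% of all genes called), 3 after quantile normalization (48.2%) and 0 to 3 with a replicate left out (0% to 72.7%). In MEFB minus MEFF polyA they were 1 after quantile normalization (26.9%) and 0 to 2 with a replicate left out (0% to 75.1%). By their introns, 1 was called after quantile normalization in MEFB minus MEFF polyA (15.2%), 0 to 5 with a replicate left out (0% to 74.3%), and 0 to 3 with a replicate left out in the other contrast (0% to 60.8%).

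Some small differences turned. Map3k4 exons in MEFB minus MEFF polyA went to -0.37 after normexp, -0.149 after quantile normalization and, with a replicate left out, ranged from -0.357 to 0.57; its introns ranged from -0.0261 to 0.147. In MEFF total minus MEFF polyA, Agpat4 introns went to -0.00698 with moved probe centres, and, with a replicate left out, ranged down to -0.185 (-0.0213 without the first total RNA array); in the same contrast Map3k4 introns went to 0.0544 after normexp and 0.0118 after quantile normalization, and ranged from -0.128 to 0.0458 with a replicate left out. No paired analysis was possible because the labels number no replicates across the groups.

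The number of arrays limits precision: MEFB has 1. Exon levels rest on 11 to 40 probes for the flank genes named. A window holding mostly introns can lie under the limit in an active gene.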
